A study of Mus musculus with 6 samples.

Results

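The genes described here are 39 genes of glycolysis and of the response to low oxygen, measured in whole embryonic kidneys of mice that lack Yap in part of their cells and in control kidneys. They were chosen by name, with earlier results of these data known. All probes of the value table whose platform gene symbol was on the list were taken. The genes fall into 18 glycolytic enzymes and 7 carriers and regulators of sugar flux. The others are 4 genes of the oxygen-sensing system itself and 10 other genes that low oxygen induces. Of the 39 genes, 36 had a probe among the 19057 genes that the platform annotation names, and 31 had at least 1 probe bright enough to be tested; the 36 genes were covered by 67 probes, of which 45 were tested. Hk2, Gpi1 and Eno1 were not analysed here because no probe carried their symbol. The probes of Pfkfb3, Epas1, Bnip3, Adm and Ero1l were all below the brightness filter, with every value between 6.92 and 7.43 on the log2 scale, so these 5 genes have levels but no test.

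Glycolysis splits glucose into pyruvate in the cytosol, and lactate dehydrogenase reduces pyruvate to lactate when cells do not burn it in mitochondria. In low oxygen the prolyl hydroxylases that mark HIF alpha subunits for destruction lose activity, HIF accumulates, and it binds short sites in the promoters of glycolytic enzymes, of the glucose carrier and of genes for cell survival and matrix. The progenitors of the embryonic kidney are known for high glycolytic activity, and the outer, growing zone of the organ is poor in oxygen in the embryo.

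All animals were on a mixed background of C57BL/6 and 129S1/SvImJ and were taken at E13.5, in mid-gestation, when the ureteric bud branches and the first nephrons form. The 3 control arrays hold kidneys labelled as control, and the 3 YapCM-/- arrays hold kidneys in which Yap, the coactivator of TEAD factors that Hippo signalling restrains, was deleted. CM is not explained in the labels; by what is known of this work it means cap mesenchyme, the nephron progenitors, so that the ureteric bud, stroma and vessels of the mutant organ keep Yap. Neither the alleles of the controls nor the driver of the deletion is given in the labels, and they do not say whether the replicates were separate embryos, litters or pools, so every p-value below is set against a spread between arrays that may be technical only. In whole organs, fewer cells of a type and less RNA per cell cannot be told apart. Values are log2 signals, and a difference is the YapCM-/- mean minus the control mean on that scale.

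The promoters of 6 of the enzymes are shown because several of the enzymes with the largest differences are textbook HIF targets, and Tpi1 as one whose groups overlapped. Each is the 250 bases before an annotated start in RefSeq GRCm38.p6, printed 5′ to 3′ in the gene's direction. Capitals mark a HIF core, ACGTG or GCGTG, read on either strand, so that CACGT and CACGC are the same cores on the other strand and a CACGTG holds ACGTG on both strands. Aldoa lies on the minus strand (chr7:126799179-126799428), Pgk1 on the plus strand (chrX:106186850-106187099), Pkm on the plus strand (chr9:59656977-59657226), Ldha on the plus strand (chr7:46845554-46845803), Gapdh on the minus strand (chr6:125165774-125166023) and Tpi1 on the minus strand (chr6:124814159-124814408).
Aldoa: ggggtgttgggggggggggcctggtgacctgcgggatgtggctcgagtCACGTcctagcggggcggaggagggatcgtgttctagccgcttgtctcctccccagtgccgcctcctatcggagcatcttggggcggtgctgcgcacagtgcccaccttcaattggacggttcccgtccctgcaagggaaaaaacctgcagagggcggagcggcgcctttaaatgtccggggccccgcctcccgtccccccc
Pgk1: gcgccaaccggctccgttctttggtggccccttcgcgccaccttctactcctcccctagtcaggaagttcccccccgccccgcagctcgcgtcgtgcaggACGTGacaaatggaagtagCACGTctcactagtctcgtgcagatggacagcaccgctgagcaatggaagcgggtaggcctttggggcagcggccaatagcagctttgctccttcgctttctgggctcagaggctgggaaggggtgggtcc
Pkm: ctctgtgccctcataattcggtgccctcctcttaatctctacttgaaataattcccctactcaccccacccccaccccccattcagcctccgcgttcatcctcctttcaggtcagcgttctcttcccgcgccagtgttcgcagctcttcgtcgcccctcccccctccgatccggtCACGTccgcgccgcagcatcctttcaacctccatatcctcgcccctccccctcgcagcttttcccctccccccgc
Ldha: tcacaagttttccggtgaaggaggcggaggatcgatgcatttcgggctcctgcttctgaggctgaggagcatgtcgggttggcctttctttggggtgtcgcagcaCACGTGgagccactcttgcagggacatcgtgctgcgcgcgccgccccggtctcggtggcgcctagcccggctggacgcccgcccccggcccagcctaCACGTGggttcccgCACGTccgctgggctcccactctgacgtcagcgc
Gapdh: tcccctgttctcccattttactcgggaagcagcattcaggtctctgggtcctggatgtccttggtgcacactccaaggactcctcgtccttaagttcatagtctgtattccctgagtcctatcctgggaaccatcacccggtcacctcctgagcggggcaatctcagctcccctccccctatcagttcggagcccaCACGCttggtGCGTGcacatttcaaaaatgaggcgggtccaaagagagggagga
Tpi1: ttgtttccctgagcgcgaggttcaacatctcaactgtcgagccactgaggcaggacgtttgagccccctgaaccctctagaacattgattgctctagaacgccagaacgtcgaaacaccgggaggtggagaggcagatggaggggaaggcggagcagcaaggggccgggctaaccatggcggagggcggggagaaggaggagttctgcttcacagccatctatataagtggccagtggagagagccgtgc

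In these stretches the Aldoa core starts 202 bases before the start, the Pgk1 cores 150 and 131 bases before it, the Pkm core 75 bases before it and the Gapdh cores 54 and 44 bases before it. Ldha holds 3 marked places, 2 of them CACGTG, and Tpi1 holds none. Of the annotated starts of each gene, 2 of 3 for Aldoa, 1 of 2 for Pkm and 2 of 2 for Ldha held a core, and the start shown was taken among those that did. Cores were not limited to enzymes with separate groups. Among the other tested enzymes with overlap, Pfkl, Pfkp, Ldhb and Pgam1 held a core at 1 of 1 start. Hk1 did so at 1 of 2 and Eno2 at 0 of 1. Pfkm, whose mutant arrays were above all controls, held a core at 3 of 4. Promoters of 36 of the 39 genes were searched, and those of Slc2a3, Ndrg1 and Epas1 were not analysed here. A HIF core of either form was found before at least 1 start in 33 of the 36 genes, or 91.7%, against 41.5% of all 27025 genes with entries, and in 82.4% of the 51 promoter entries of the listed genes against 38.6% of all 32851. These entries were also richer in G and C, with a median of 61.6% against 52.4% over all promoters, and the part of base composition in these shares was not tested. The list was itself drawn from pathways with known HIF targets, so a higher share does not test HIF binding here. ACGTG alone was found in 61.1% of the genes and in 18.5% of all genes, and GCGTG in 66.7% and 30.9%. GGAATG, a core of TEAD binding sites, searched on both strands, was found in 5 of the 36 genes (13.9%) against 14.4% of all genes. By promoter entry the shares were 11.8% and 12.6%. The 5 are the glycolytic enzymes Aldoa, Aldoc, Eno1, Eno2 and Eno3, 27.8% of the 18, a share that was not tested. Several of these have more than 1 start and so more chances of a match. Aldoa's match is not at the start printed above. A match is only a run of letters in this window, and Tpi1, Eno2 and Gpi1, which had no HIF core here, may hold one elsewhere.

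Across the 6 arrays, 10 of the 15 tested glycolytic enzymes had lower mean signals in YapCM-/- kidneys and 5 had higher ones, none past the adjusted threshold. The other hypoxia-induced genes were 4 lower and 3 higher. The lowest differences were those of Pgk1 (-0.57), Aldoa (-0.55), Pkm (-0.46) and Ldha (-0.46). No probe of a listed gene passed the threshold of 0.05 after Benjamini-Hochberg adjustment in limma over all 22640 tested probes, where 0.177% of probes (40) did; the smallest adjusted p among the 45 probes was 0.128, for Aldoa. At an unadjusted p under 0.05, 9 of the 31 genes were lower and 0 were higher, against 6.86% of all tested genes lower and 6.6% higher. The list was chosen with earlier results of these data known, so these shares and those below do not test it. In 9 of the 31 genes all 3 YapCM-/- arrays lay below all 3 control arrays and in 2 they lay above, against 9.06% and 8.94% of the 11762 tested genes. With 8 of its 15 tested genes lower at that p, glycolysis proper holds all but 1 of the 9, the other being Ndrg1.

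Aldoa encodes the aldolase that cleaves fructose bisphosphate into the triose phosphates. Its log2 signal was 11.70, 11.22 and 11.47 on the control arrays and 10.99, 10.87 and 10.87 on the YapCM-/- arrays. All mutant arrays were below all controls, the mutant arrays lay close together, and control replicate 1 was the highest. The means were 11.46 ± 0.237 and 10.91 ± 0.0691 (SD, n = 3 each), a difference of -0.55 (SE 0.115, 95% interval -0.81 to -0.30), or a control signal 1.47-fold that of the mutant, with an adjusted p of 0.128 in limma.

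Aldoc, a second aldolase better known from brain, is dim, at 7.70, 7.50 and 7.44 in controls and 7.21, 7.36 and 7.37 in mutants. The groups did not overlap, but the gap between the lowest control and the highest mutant was small, and the difference of -0.23 had an adjusted p of 0.379 in limma.

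Pgk1 encodes phosphoglycerate kinase, which makes the first ATP of the pathway. It stood at 12.91, 12.66 and 12.28 on the control arrays and at 12.08, 11.89 and 12.15 on the YapCM-/- arrays. Control replicate 3 was the nearest to the mutants and the groups did not overlap. The difference was -0.57 (SE 0.144, 95% interval -0.90 to -0.25), a 1.49-fold higher control signal, with an adjusted p of 0.195 in limma. A second, dim Pgk1 probe, near the filter, gave 0.08 (adjusted p = 0.854, limma), so the difference rests on the bright probe.

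Pkm, the pyruvate kinase of most embryonic tissue, stood at 13.32, 13.09 and 12.92 in controls and at 12.81, 12.48 and 12.65 in mutants. Again every mutant array lay below every control. The difference was -0.46 (SE 0.118, 95% interval -0.73 to -0.20), a 1.38-fold higher control signal, with an adjusted p of 0.196 in limma.

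Ldha encodes the muscle-type lactate dehydrogenase subunit, which turns pyruvate into lactate. Its signal was 13.62, 13.20 and 13.19 in controls and 13.00, 12.63 and 13.02 in mutants. Control replicate 1 stood 0.42 above the other controls and YapCM-/- replicate 2 lowest, and the remaining 4 arrays were separated only narrowly. The difference was -0.46 (SE 0.140, 95% interval -0.77 to -0.14), with an adjusted p of 0.256 in limma. Ldhb, the heart-type subunit, gave -0.14 (adjusted p = 0.677) with overlapping groups.

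Gapdh, the dehydrogenase between aldolase and Pgk1 and a frequent reference gene, was measured at 13.65, 13.56 and 13.49 in controls and 13.36, 13.31 and 13.42 in mutants. The groups were apart by less than 0.1 at their nearest arrays. The difference of -0.20 (SE 0.0787) amounts to a 1.15-fold higher control signal and had an adjusted p of 0.385 in limma. Compared with Aldoa, Pgk1, Pkm and Ldha, its difference was the smallest.

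Eno3, the muscle-type enolase, was at 8.53, 8.43 and 8.42 in controls and at 8.20, 8.01 and 8.19 in mutants. The controls were tight and the mutants clearly below them. The difference was -0.33 (SE 0.0831, 95% interval -0.51 to -0.14), a 1.25-fold higher control signal, with an adjusted p of 0.196 in limma. Eno2, the neuronal enolase, went the other way at 0.20 (adjusted p = 0.533), with 7.78, 7.38 and 7.61 in controls against 7.68, 7.85 and 7.85.

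Pgam1, the phosphoglycerate mutase, had a pair of bright probes that were both lower in mutants by different amounts. The brighter one read 10.50, 9.93 and 10.07 in controls and 9.87, 9.97 and 9.70 in mutants, and YapCM-/- replicate 2 lay above control replicate 2. Its difference was -0.32 (adjusted p = 0.426), while the other probe, at 10.15, 10.31 and 9.70 against 9.47, 9.75 and 9.38, gave -0.52 (SE 0.153, adjusted p = 0.242, limma). The groups overlapped on both probes, by control replicate 2 on one and by control replicate 3 on the other.

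**Figure D1:**
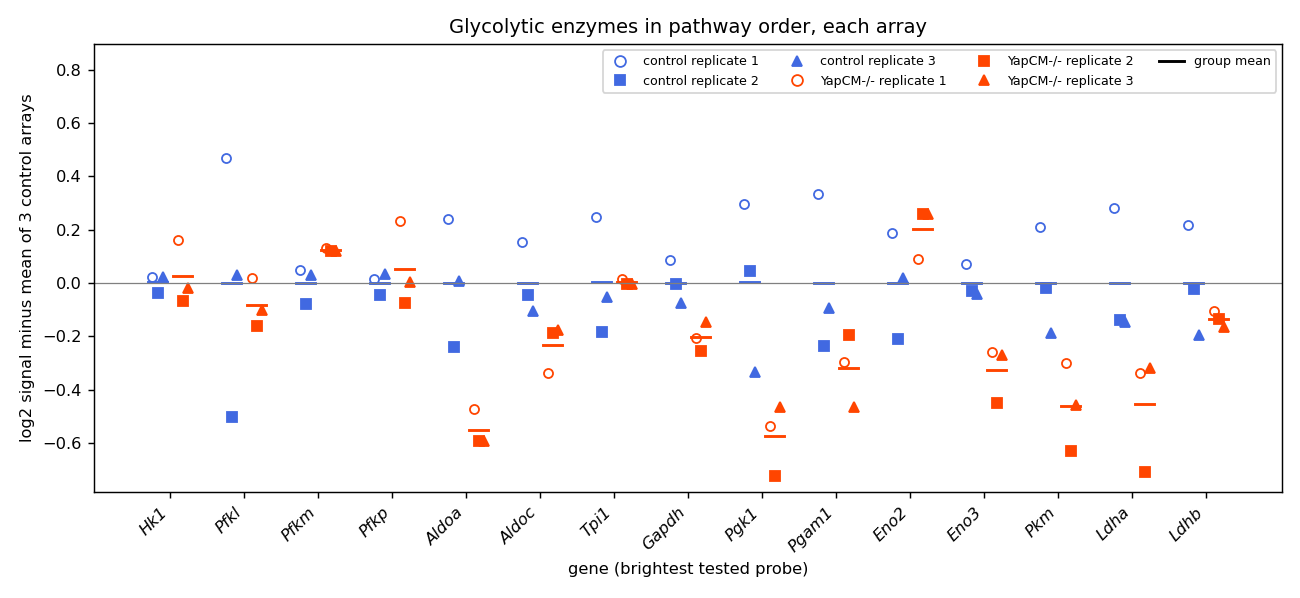
Log2 signal of the 15 tested glycolytic enzymes on each of the 6 arrays, as the distance from the mean of the 3 control arrays; the horizontal bars are group means and the genes run in pathway order. Aldoa, Aldoc, Gapdh, Pgk1, Eno3, Pkm and Ldha have all 3 YapCM-/- arrays below all controls, Pfkm has them above, and control replicate 1 (open blue circles) is the highest array for 11 of the 15 genes.

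Of the remaining enzymes, Pfkm, the muscle-type phosphofructokinase, read 10.63, 10.50 and 10.61 in controls and 10.71, 10.70 and 10.70 in mutants; here all mutant arrays were above all controls. The difference was 0.12 (adjusted p = 0.579, limma), and the other Pfkm probes gave 0.13 and 0.14. Hk1, the hexokinase that traps glucose in the cell, gave 0.02 (adjusted p = 0.945), with a dimmer probe at -0.08, and Pfkp, the platelet-type phosphofructokinase, 0.05 (adjusted p = 0.886), with a dimmer probe at -0.01. The next genes, Pfkl and Tpi1, are outside the rule for naming and were chosen after their values were seen, for their spread. Pfkl, the liver-type phosphofructokinase, ranged from 10.66 to 11.63 within the controls alone, and its difference of -0.08 had a 95% interval of -0.52 to 0.35. Tpi1, the triose phosphate isomerase whose reaction lies between those of aldolase and Gapdh, read 12.93, 12.50 and 12.63 in controls and 12.70, 12.68 and 12.68 in mutants, a difference of 0.00 with a 95% interval of -0.24 to 0.24. That interval does not reach the -0.55 of Aldoa, but the difference between these genes was not tested. Tpi1's second bright probe gave -0.19 (adjusted p = 0.706) and its dim one 0.03.

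Over the 15 tested enzymes the median difference was -0.20, with 10 lower and 5 higher, against a median of 0.00 over all tested genes. Among the 9 enzymes with a mean log2 signal above 9 it was -0.32, with 6 lower at an unadjusted p under 0.05, against 0.01 over the 4494 tested genes that bright, of which 9.23% were lower. Without control replicate 1 the median of these 9 enzymes was -0.16, with 4 lower, against 7.01% of the genes that bright. The 6 dimmer enzymes had a median of -0.06, with 3 lower and 3 higher means. Of these, 2 were lower at an unadjusted p under 0.05, against 6.86% of all tested genes. Without control replicate 1, 1 was lower and 1 higher at that p. The cut at a mean of 9 was not planned beforehand. Counts of lower and higher genes here describe the list, which was not tested as a set.

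Of the 6 tested carriers and flux regulators, 4 had lower and 2 had higher means in mutants. Slc16a3, the monocarboxylate carrier that exports lactate, had the smallest p of the 6 tested genes and was on the high side, at 7.29, 7.31 and 7.37 in controls and 7.40, 7.41 and 7.58 in mutants. The mutant arrays were above all controls, but by little, near the filter, and the difference of 0.14 had an adjusted p of 0.561 in limma; it was 0.08 without YapCM-/- replicate 3. Pfkfb4 makes a regulatory fructose bisphosphate that activates phosphofructokinase and is not the one that aldolase cleaves. It read 8.41, 8.27 and 8.25 in controls and 8.37, 8.48 and 8.48 in mutants. Control replicate 1 fell among the mutants, and the difference was 0.13 (adjusted p = 0.583, limma).

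Slc2a1, the main glucose carrier and a textbook HIF target, is named after its values were seen. It read 11.32, 10.36 and 10.72 in controls and 10.73, 10.62 and 10.75 in mutants. The controls spanned almost a whole log2 unit and all mutants fell inside that span, so that the difference of -0.10 (95% interval -0.53 to 0.33) spans changes in both directions. Pdk1, a kinase that phosphorylates pyruvate dehydrogenase, gave -0.18 (adjusted p = 0.702). Its relative Pdk3 gave -0.08 (adjusted p = 0.838) and Slc2a3, a high-affinity glucose carrier, -0.11 (adjusted p = 0.779). The median of the 6 genes was -0.09, with 0 at an unadjusted p under 0.05.

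Among the oxygen sensors, Egln3 encodes a prolyl hydroxylase that HIF itself induces. It read 9.07, 9.06 and 9.18 in controls and 8.66, 9.01 and 9.01 in mutants. The mutant arrays were below all controls, with YapCM-/- replicate 1 far lower than the others, and the difference was -0.21 (95% interval -0.44 to 0.03, adjusted p = 0.498, limma). Without YapCM-/- replicate 1 it was -0.09. Hif1a, the alpha subunit induced by loss of oxygen at the level of its protein, read 8.35, 8.45 and 8.23 in controls and 8.18, 8.42 and 8.54 in mutants. These overlap fully, and the difference was 0.04 (95% interval -0.20 to 0.27), so its mRNA showed no difference larger than the spread. Egln1, the main prolyl hydroxylase, gave 0.01 (adjusted p = 0.977), with its other probes at -0.07 and -0.09. RNA levels say nothing of HIF protein or of its hydroxylation, which were not measured here.

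Ndrg1, a stress-responsive gene strongly induced by low oxygen, was the 1 other hypoxia-induced gene of the list at an unadjusted p under 0.05. It read 8.34, 8.31 and 8.28 in controls and 8.06, 7.94 and 7.90 in mutants. Both groups were tight and far apart for their spread, and control replicate 1 did not stand out. The difference was -0.34 (SE 0.0779, 95% interval -0.52 to -0.17), a 1.27-fold higher control signal, with an adjusted p of 0.171 in limma. The second Ndrg1 probe, at 8.04, 7.96 and 8.13 in controls and 7.77, 7.80 and 7.88 in mutants, also had no overlap and gave -0.22 (adjusted p = 0.336).

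Among the remaining genes of this group, Mxi1, an antagonist of Myc, read 9.52, 9.38 and 8.91 in controls and 8.88, 9.12 and 9.06 in mutants, with overlap, and gave -0.25 (adjusted p = 0.550, limma). Its difference was -0.13 without control replicate 1 and -0.43 without control replicate 3. Ankrd37, a HIF target of unclear role, gave -0.18 (adjusted p = 0.701) and Car9, a carbonic anhydrase that serves as a hypoxia marker, -0.06 (adjusted p = 0.878). The collagen prolyl hydroxylases P4ha1 and P4ha2 gave 0.01 (adjusted p = 0.983) and 0.11 (adjusted p = 0.755), and a second P4ha1 probe -0.10. Ddit4, an inhibitor of mTORC1 named after its values were seen, ranged from 9.19 to 10.18 in controls, and its mutant arrays, at 9.86, 9.65 and 9.59, fell inside. Its difference of 0.05 had a 95% interval of -0.40 to 0.51. The 7 tested genes of this group had a median of -0.06, with 4 lower and 3 higher. With 1 array left out that median ranged from -0.17 without control replicate 2 to 0.01 without control replicate 3, and with background subtracted it was -0.16.

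**Figure D2:**
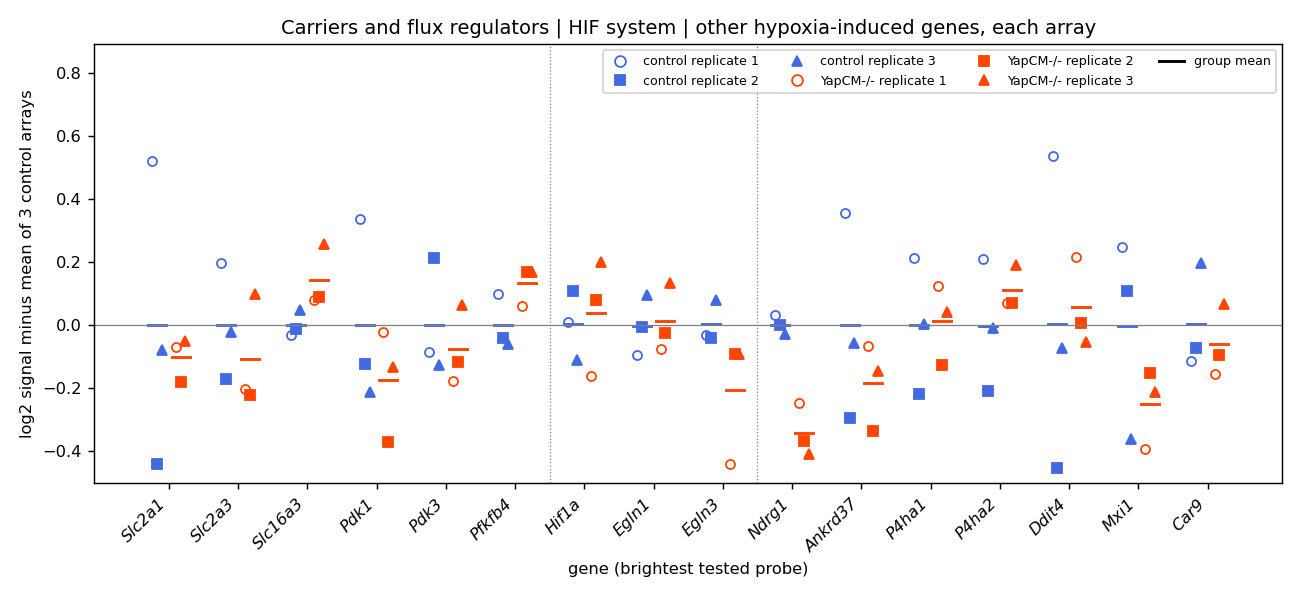
Log2 signal of the 16 tested genes outside glycolysis proper on each array, as the distance from the mean of the 3 control arrays, with bars at the group means; dotted lines part the carriers and flux regulators, the oxygen-sensing genes and the other hypoxia-induced genes. Ndrg1 and Egln3 have all 3 YapCM-/- arrays below the controls, while Slc2a1 and Ddit4 spread over almost 1 log2 unit within the controls, with control replicate 1 at the top.

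Control replicate 1 was the highest array for 20 of the 31 genes (64.5%), against 14.2% of all tested genes, and for 11 of the 15 glycolytic enzymes and 6 of the 7 other hypoxia-induced genes. It exceeded the next highest array by 0.57 for Slc2a1, 0.45 for Pfkl, 0.43 for Pgam1, 0.42 for Ldha and 0.41 for Ankrd37. As the median over the enzymes of the distance from each gene's mean over all arrays, control replicate 1 stood at 0.27, the other controls at 0.04 and 0.01, and the YapCM-/- arrays at -0.07, -0.10 and -0.06. The other hypoxia-induced genes stood at 0.20 on control replicate 1 and -0.21 on control replicate 2, with the YapCM-/- arrays between them. All tested genes together were at 0.00 or 0.01 in size on each array. Near-equal sorted values of the arrays keep such medians small. At the other end, YapCM-/- replicate 2 was the lowest array for 8 of the 15 enzymes (53.3%), against 18.0% of all tested genes.

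**Figure D3:**
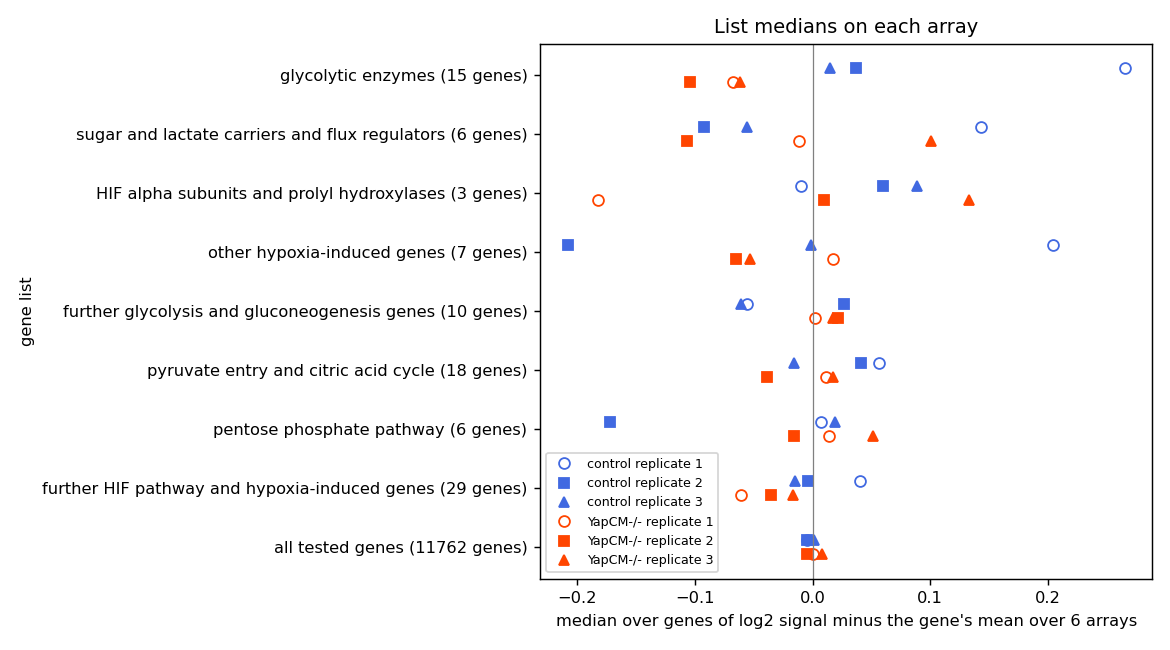
Median over the genes of each list of the log2 signal minus the gene's mean over all 6 arrays, with 1 point for each array. For the glycolytic enzymes the 3 controls lie above the 3 YapCM-/- arrays and control replicate 1 stands alone at 0.27; for the other hypoxia-induced genes control replicates 1 and 2 mark both ends.

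Without control replicate 1, the median of the glycolytic enzymes was -0.15 and that of the other hypoxia-induced genes -0.01. The carriers and flux regulators turned from -0.09 to 0.06 and the oxygen-sensing genes stood at -0.03. Lower at an unadjusted p under 0.05 were then 6 of the 31 genes, namely Aldoa, Pgk1, Pkm, Ldha, Eno3 and Ndrg1, against 5.35% of all tested genes, and Gapdh, Aldoc and Pgam1's brighter probe no longer were. All YapCM-/- arrays lay below the 2 other controls in 9 of the 31 genes, against 13.3% of all tested genes. Leaving out a control could not lower this count, because arrays below all controls are also below any subset of them. The count is therefore no check on the non-overlap. No listed probe passed the adjusted threshold, as did 0.0398% of all probes (9), and the smallest adjusted p was 0.350.

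Without that array, Aldoa was at -0.43 in place of -0.55, Pgk1 at -0.43 in place of -0.57, Pkm at -0.36 in place of -0.46, and Ldha at -0.32 in place of -0.46. Eno3 moved little, from -0.33 to -0.29, and Ndrg1 from -0.34 to -0.33. Pgam1's brighter probe went from -0.32 to -0.15 and its other probe from -0.52 to -0.47. Ddit4 at 0.32 and Eno2 at 0.29 were then higher at an unadjusted p under 0.05 (0.0434 and 0.0241), with adjusted p-values of 0.544 and 0.493. These 2 of 31 genes are near the 5.18% of all tested genes that were higher in the same fit. Slc2a1 was then at 0.16, Pfkl at 0.16 and Tpi1 at 0.12, and Ankrd37 and Pdk1 were both at -0.01.

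**Figure D4:**
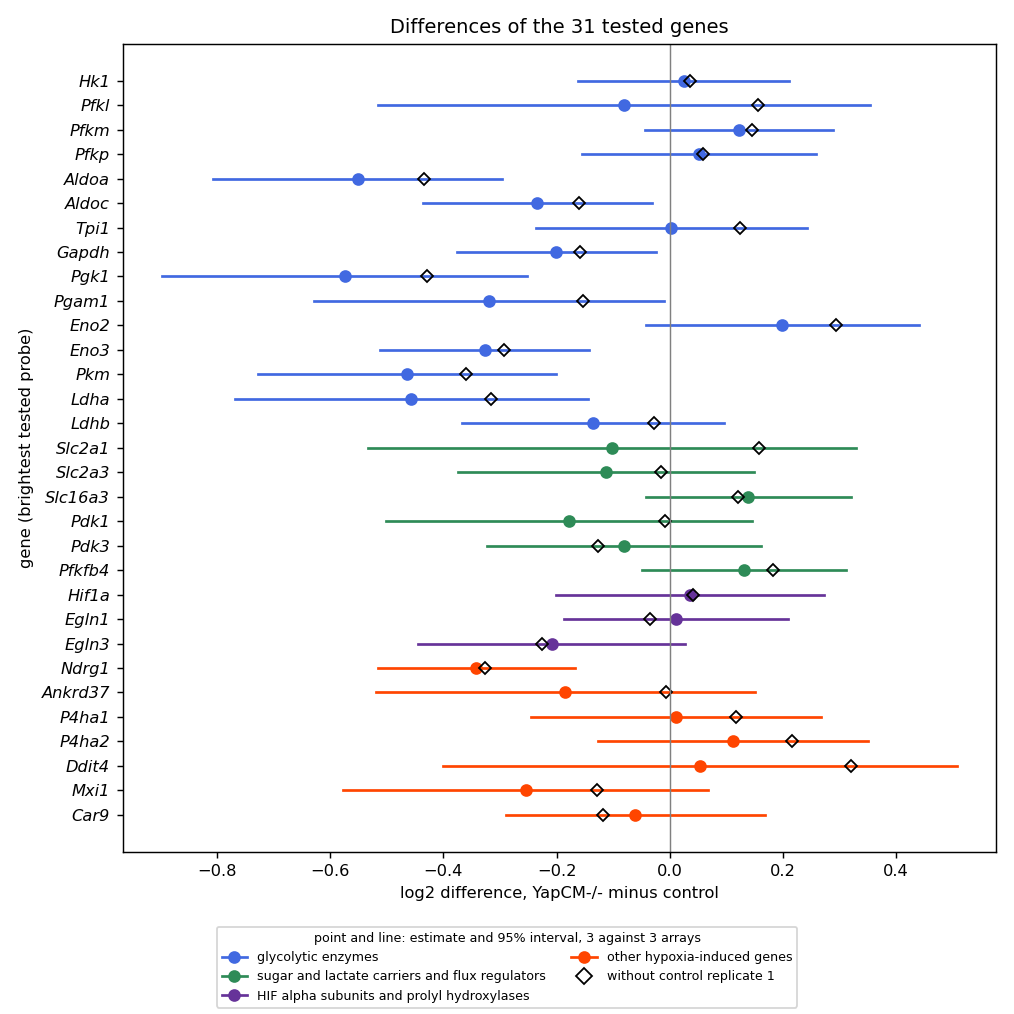
Difference in log2 signal, YapCM-/- minus control, for the 31 tested genes: filled points are the fit of 3 against 3 arrays with its 95% interval, and open diamonds are the same difference without control replicate 1. The intervals of 9 genes, Aldoa, Aldoc, Gapdh, Pgk1, Pgam1, Eno3, Pkm, Ldha and Ndrg1, lie below 0 before adjustment; the diamonds of Slc2a1, Pfkl, Tpi1 and Ddit4 lie above 0.

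In a further list of 26 glycolysis and gluconeogenesis genes, 10 were tested, 5 lower and 5 higher, with a median of -0.01. Its 1 gene at an unadjusted p under 0.05 was Pfkfb2, a kinase and phosphatase that sets the level of the same regulatory fructose bisphosphate as Pfkfb4. Pfkfb2 read 8.14, 8.16 and 8.15 in controls and 8.30, 8.61 and 8.51 in mutants. All mutants were above the tight controls and the difference was 0.32 (adjusted p = 0.230, limma).

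Of 23 genes of pyruvate entry and the citric acid cycle, 18 were tested, 11 lower and 7 higher, with a median of -0.03. At an unadjusted p under 0.05, 3 were lower and 2 higher, against 6.86% and 6.6% of all tested genes. Dlst, a subunit of the oxoglutarate dehydrogenase complex, read 10.74, 10.77 and 10.37 in controls and 10.07, 10.05 and 10.12 in mutants. All mutant arrays were below the controls, and the difference of -0.54 had an adjusted p of 0.114 in limma. Pdha1, the subunit of pyruvate dehydrogenase that Pdk1 phosphorylates, gave -0.24 (adjusted p = 0.397), while Mdh1, the cytosolic malate dehydrogenase, gave 0.25 (adjusted p = 0.271) and Idh3b, a subunit of isocitrate dehydrogenase, 0.25 (adjusted p = 0.313). The pentose phosphate pathway, which branches off above phosphofructokinase, had 6 of 7 genes tested, 1 lower and 5 higher, with a median of 0.08 and 0 at an unadjusted p under 0.05; Pgd, its decarboxylating dehydrogenase, had the smallest p and gave 0.13 (adjusted p = 0.635), or 0.05 without YapCM-/- replicate 1.

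In a further list of 32 HIF pathway and hypoxia-induced genes, 29 were tested, 17 lower and 12 higher, with a median of -0.05. At an unadjusted p under 0.05, 3 of the 29 were lower and 0 higher, near the 6.86% lower and 6.6% higher among all tested genes. Hmox1, the inducible heme oxygenase, read 8.15, 8.00 and 8.04 in controls and 7.76, 7.52 and 7.65 in mutants, without overlap. Its difference was -0.42 (adjusted p = 0.129, limma). Ak4, a mitochondrial adenylate kinase, gave -0.40 (adjusted p = 0.180), and Fam162a, a mitochondrial protein that HIF induces, read 12.21, 11.91 and 11.82 in controls against 11.59, 11.63 and 11.49 and gave -0.41 (adjusted p = 0.203). All 3 kept an unadjusted p under 0.05 without control replicate 1, at -0.38, -0.32 and -0.29. Vegfa, the vessel growth factor and a classical HIF target named after its values were seen, gave -0.15 (adjusted p = 0.682).

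The labels and the tissue were checked on the same arrays. Yap1 was lower in the YapCM-/- kidneys, at 8.87 ± 0.142 against 9.73 ± 0.0878 in controls (SD, n = 3 each). The difference was -0.86, with an adjusted p of 0.0102 in limma. That adjusted p was 0.0954 without control replicate 1, 0.0518 without control replicate 3 and 0.0722 with background subtracted. Signal correlations between arrays were 0.983 to 0.993. The median log2 signal was 7.30 on each, which follows from the near-equal sorted values of the arrays and is no check. Cell type markers also differed between the groups. All 4 tested proximal tubule markers were lower, with a mean log2 signal of 8.40 to 8.85 over the control arrays and 7.75 to 7.97 over the mutants, and Lrp2 and Pdzk1 passed the adjusted threshold while Cubn and Slc5a2 were below the filter. Both tested podocyte markers, Podxl and Synpo, were lower, at 9.15 to 9.55 against 8.81 to 9.09, and of 6 cap mesenchyme markers 3 were lower and 3 higher, with the list at 8.83 to 8.98 against 8.72 to 8.90; Cited1 alone passed, lower, and at an unadjusted p under 0.05 Six2 was lower and Eya1 higher. Of 6 early nephron markers, Lhx1, Jag1 and Fgf8 were lower and Pax8 higher at an unadjusted p under 0.05, with the list at 10.08 to 10.20 against 9.99 to 10.11. Of 6 stroma markers, Pdgfrb and Col1a1 were lower at that p, at 10.55 to 10.75 against 10.50 to 10.64 over the list. Of 6 endothelium markers, 2 were lower and 4 higher, and 2 were higher at that p. Over that list the signal was 9.33 to 9.45 against 9.42 to 9.49. All 5 tested ureteric bud markers were higher, at 9.29 to 9.43 against 9.58 to 9.68, and Ret passed. The part of this shift in cell types in the lower enzyme signals was not tested. Among the controls, replicate 1 had the lowest list mean for ureteric bud, early nephron and macrophage markers. It was the middle one for proximal tubule, podocyte, cap mesenchyme, stroma, endothelium and adrenal cortex. It was the highest for skeletal muscle (7.38 against 7.22 and 7.33) and neuron (7.66 against 7.65 and 7.46), with 2 tested genes each. For erythroid markers it was also the highest (8.44 against 8.31 and 8.23). Yet of these 3 genes 1 was highest and 2 were lowest on that array. Skeletal muscle also makes Aldoa, Pkm and Eno3; of its markers Myod1, Ckm and Tnnt3 were below the filter, and the 2 tested ones had a mean of 7.22 to 7.38 in controls and 7.30 to 7.44 in mutants. Erythroid markers, from blood in the organ, were at 8.23 to 8.44 and 8.32 to 8.45. Of the 3 tested ones 1 was lower and 2 were higher, with 1 higher at an unadjusted p under 0.05.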

How the data were processed

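Total RNA of E13.5 kidneys was extracted with an RNeasy kit, checked on a Bioanalyser and amplified to biotinylated cRNA with an Illumina TotalPrep-96 kit, per the labels' protocols. The deposited values are log2 signals of 45281 bead-array probes, and once sorted the 6 arrays differ by at most 0.00608, as quantile normalisation leaves them; the sources used here do not name the software or the background step. A deposited table of values before normalisation was not used here, because the names of its 12 per-sample columns match no sample's labels.

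Gene symbols are those of the platform annotation, which can be old: 34885 had 1 symbol, 18 several (not named) and 10378 were not listed. Gene IDs of 34807 probes matched RefSeq GRCm38.p6, and Ero1l was looked up there as Ero1a. Probe sequences were not analysed here. Promoters are RefSeq's for GRCm38.p6, and their coordinates are in that build.

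The brighter 50% of probes, with a mean log2 above 7.29, entered a limma fit (lmFit, then eBayes; limma 3.58.1, R 4.3.3), YapCM-/- against control, 3 arrays each, two-sided and without covariates, with Benjamini-Hochberg adjustment over 22640 probes and a threshold of 0.05. All adjusted p-values are from this fit, its repeat without 1 array or another setting where that is named. A gene is represented by its brightest tested probe. Precision is limited by having 3 arrays a group. The fit was tested on simulated data.

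The listed genes, the further pathway and marker lists and the alternatives were chosen with earlier results of these data known. Array values are given for listed genes at an unadjusted p under 0.05 and for the 2 with the smallest p of each list; other probes are given where they differ in sign or by over 0.3. From each further pathway list, up to 4 genes at an unadjusted p under 0.05 are named, or else the 1 with the smallest p. Other settings were the filter, a block on the replicate number, the eBayes options, the threshold, background subtraction, the mean over a gene's probes and each array left out.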

Additional observations from a re-analysis of the deposited data

How the results depend on the processing

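The settings were followed for 25 probes besides Yap1, those named by the rules on p above. Of these, 24 kept their sign in every setting and Hif1a did not. Genes named after their values were seen were not among the 25. Of those, Slc2a1 went from -0.10 to 0.16 without control replicate 1. Hif1a was at 0.04 and ranged from -0.045 (without YapCM-/- replicate 3) to 0.137 with 1 array left out, and was -0.022 without control replicate 3. Testing only the 25% brightest probes put the median of the glycolytic enzymes at -0.32 in place of -0.20. With 1 array left out, the median of the carriers and flux regulators ranged from -0.14 to 0.056, the listed probes lower at an unadjusted p under 0.05 from 7 to 13 in place of 11, and the probes called over the whole table from 6 to 27 in place of 40. That whole count was 26 with the stricter filter, 64 with trend and robust eBayes, 10 with background subtracted and 87 at an adjusted p under 0.10; no listed probe passed the threshold in these settings. The cause of these changes was not tested.

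With the replicate number as a block, 138 probes were called, among them 2 listed ones, Aldoa (adjusted p = 0.0352) and the dimmer of the bright Pgam1 probes (adjusted p = 0.0453). The labels give the numbers no shared litter or day. Deviations from the group means had correlations of 0.132, 0.142 and -0.0212 between arrays of the same number. Of the 3 control arrays, 1 correlated best with its own number. Whether arrays of the same number were paired is not known from the labels and was not tested. Signal near background limits the 22 untested listed probes, which have levels only.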

Other observations

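Genes of the neighbouring pathways with several tested probes did not always give 1 answer; these were named after their values were seen. For Fh1, the fumarate hydratase of the citric acid cycle, the brighter probe gave -0.09 (adjusted p = 0.755, limma) and the other, at 10.45, 10.71 and 10.40 in controls and 9.83, 10.30 and 9.94 in mutants, gave -0.49 (adjusted p = 0.201). For Arnt, the constitutive partner of HIF alpha subunits, the brightest probe gave 0.09 (adjusted p = 0.714), while another, at 8.97, 9.50 and 8.96 in controls and 8.54, 8.68 and 8.49 in mutants, gave -0.57 (adjusted p = 0.193). Dlst, at -0.54 on its brightest probe, gave -0.41 (adjusted p = 0.201) on the second, 0.31 (adjusted p = 0.401) on the third and 0.08 on the fourth. Mdh1, at 0.25, gave 0.09 and -0.23 on dimmer probes, and Idh3b, at 0.25, gave -0.16 on a dimmer one. None of these probes passed the adjusted threshold in limma.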
